A study of Mus musculus with 15 samples.

Results

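The 52 genes described here are expressed in G2 and mitosis, and were chosen by name, from a list of cyclins, mitotic kinases, checkpoint and kinetochore proteins, kinesins, condensins and the regulator Foxm1. They are 52 of the 55416 genes in the deposited table. All 52 passed the filter on low counts that left 18244 genes to test. Expression was measured by RNA sequencing in neural precursor cells, the dividing cells that can form neurons and glia, grown from the hippocampus of female mice aged 6 weeks. In Atf3-OE cells a piggyBac-inserted cassette with the doxycycline-responsive TRE3G promoter drove the Atf3 coding sequence. In Atf4-OE cells it drove that of Atf4, and control cells carried the same cassette with neither. All lines also carried the Tet-On 3G transactivator under the SV40 promoter and a puromycin resistance gene. EGF and FGF were withdrawn to start differentiation, 100 ng/ml doxycycline was added to every line, controls included, at that moment, and RNA was taken 10 h later. Each line gave 5 libraries. There was 1 stable line per construct, so a construct cannot be told apart from its line. No source used here says that the libraries of a line came from separate cultures, and the p-values speak for the scatter among these libraries, which may be technical.

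Libraries held 56.8 to 65.1 M counts in Atf3-OE cells, 55.0 to 69.6 M in Atf4-OE cells and 53.7 to 65.4 M in control cells, and the lowest count of any of the 52 genes in any library was 768. Values are in CPM, counts divided by library totals in M, after the totals were scaled by the trimmed mean of M-values (TMM). Lists of 5 values run from library 1 to library 5 of a line. Atf3 was at 1771 to 2106 CPM in Atf3-OE, 1.14 to 1.90 CPM in Atf4-OE and 1.67 to 10.99 CPM in control libraries. Atf4 was at 227 to 267 CPM in Atf3-OE, 128 to 188 CPM in Atf4-OE and 76.3 to 92.6 CPM in control libraries, so that the highest Atf4 counts were in the Atf3-OE line. What share of the reads from the Atf4 cassette entered the Atf4 gene count was not tested. At an adjusted p under 0.05 in edgeR's test, 36.8% of all tested genes were higher and 36.3% lower in Atf3-OE cells. In Atf4-OE cells these shares were 31.9% and 29.7%, and they are the background for all marker counts given here. Of 10 neural precursor markers, 4 were higher and 2 lower in Atf3-OE cells, and 6 were higher and 2 lower in Atf4-OE cells. Their summed level was 4663 to 4838 CPM in Atf3-OE and 4330 to 4551 CPM in Atf4-OE, against 3679 to 3991 CPM in control libraries. Among them Sox2 was at 207 to 236 CPM in Atf3-OE, 220 to 248 CPM in Atf4-OE and 218 to 239 CPM in control libraries. Fabp7 was at 1123 to 1304 CPM in Atf3-OE, 849 to 928 CPM in Atf4-OE and 500.0 to 613 CPM in control libraries, and Hes1 at 49.0 to 70.0 CPM in Atf3-OE, 21.4 to 27.6 CPM in Atf4-OE and 36.3 to 66.7 CPM in control libraries. The mitochondrial share of counts was 3.23 to 3.95% in Atf3-OE and 3.28 to 3.57% in Atf4-OE, against 4.00 to 4.16% in control libraries. The summed level of 5 astrocyte markers, of which 3 were lower in Atf3-OE and 4 in Atf4-OE cells and 1, Slc1a2, was higher in each, was 143 to 172 CPM in Atf3-OE and 157 to 178 CPM in Atf4-OE, against 248 to 291 CPM in control libraries. That of 6 young neuron markers, 2 of them lower and 2 higher in each line and most of the sum from Tubb3, was 18.7 to 23.5 CPM in Atf3-OE and 35.6 to 56.0 CPM in Atf4-OE, against 86.1 to 91.1 CPM in control libraries. For 7 oligodendrocyte lineage markers, led by Olig1 and Olig2, of which 7 were lower in Atf3-OE and 6 in Atf4-OE cells, it was 2921 to 3733 CPM in Atf3-OE and 3474 to 4047 CPM in Atf4-OE, against 3845 to 4417 CPM in control libraries. For 5 endothelial markers, mostly Kdr, which was lower in both lines while Tek was higher, it was 12.4 to 18.5 CPM in Atf3-OE and 18.4 to 21.5 CPM in Atf4-OE, against 44.8 to 49.1 CPM in control libraries. For 5 ependymal markers, nearly all from Foxj1, it was 30.8 to 40.9 CPM in Atf3-OE and 29.5 to 38.4 CPM in Atf4-OE, against 21.6 to 25.2 CPM in control libraries. Microglia markers summed to at most 1.58 CPM and mural and fibroblast markers to at most 0.994 CPM, no listed marker was at 0 in all libraries, and the part of these markers and of the mitochondrial share in the results was not tested.

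Cells pass from DNA replication through G2 into mitosis when Cdk1 is activated by the B-type cyclins. The mitotic kinases Plk1, Aurka and Aurkb then drive spindle assembly and chromosome attachment. The checkpoint proteins hold anaphase until all kinetochores are attached, and Cdc20 and Ube2c start the degradation of cyclin B and securin. Transcripts of these genes accumulate late in the cell cycle. Their promoters are known for an element called the cell cycle genes homology region (CHR), most often TTTGAA, that recruits the MuvB complex with B-Myb and Foxm1 in dividing cells and the repressive DREAM complex in resting ones. Many also carry CCAAT boxes, which bind the factor NF-Y. In the adult hippocampus precursors leave the cycle as they differentiate, and in culture the withdrawal of EGF and FGF removes the signals that keep them dividing.

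The promoters of 8 of the genes are shown as RefSeq gives them on GRCm38.p6, from 150 bases before the annotated start to 30 bases from the start on. Ccnb2, Cenpf, Aspm and Mki67 are shown because they were lower in Atf3-OE cells, and Cdk1, Ccnf, Cdc20 and Plk4 because they were higher. Capitals mark the motif TTTGAA, its variant TTTAAA and the box CCAAT on the strand of the gene, or their complements on the other strand, where CCAAT reads ATTGG.

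Ccnb2, chr9:70421525-70421704, minus strand: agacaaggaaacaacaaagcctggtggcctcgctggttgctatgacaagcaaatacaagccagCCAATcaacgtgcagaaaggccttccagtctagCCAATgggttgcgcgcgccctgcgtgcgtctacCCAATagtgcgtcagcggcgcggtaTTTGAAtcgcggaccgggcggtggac
Cenpf, chr1:189688057-189688236, minus strand: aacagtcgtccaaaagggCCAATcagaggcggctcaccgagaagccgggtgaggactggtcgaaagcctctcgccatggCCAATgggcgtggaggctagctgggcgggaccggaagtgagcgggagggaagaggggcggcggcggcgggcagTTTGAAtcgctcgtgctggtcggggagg
Aspm, chr1:139454623-139454802, plus strand: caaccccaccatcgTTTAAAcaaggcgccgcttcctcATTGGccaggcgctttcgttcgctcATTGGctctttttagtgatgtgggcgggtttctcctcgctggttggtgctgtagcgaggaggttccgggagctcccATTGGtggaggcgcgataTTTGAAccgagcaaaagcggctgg
Mki67, chr7:135716350-135716529, minus strand: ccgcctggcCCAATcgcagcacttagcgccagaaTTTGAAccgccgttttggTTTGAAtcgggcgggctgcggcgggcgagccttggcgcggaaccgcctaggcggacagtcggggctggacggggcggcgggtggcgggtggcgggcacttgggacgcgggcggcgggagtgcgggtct
Cdk1, chr10:69352883-69353062, minus strand: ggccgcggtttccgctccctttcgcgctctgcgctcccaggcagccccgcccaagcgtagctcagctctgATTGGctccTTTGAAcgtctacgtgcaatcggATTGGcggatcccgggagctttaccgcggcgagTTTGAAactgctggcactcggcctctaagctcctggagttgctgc
Ccnf, chr17:24251380-24251559, minus strand: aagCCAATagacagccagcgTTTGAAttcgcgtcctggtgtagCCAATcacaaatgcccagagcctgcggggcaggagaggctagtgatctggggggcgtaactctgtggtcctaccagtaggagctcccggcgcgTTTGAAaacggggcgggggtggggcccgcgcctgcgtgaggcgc
Cdc20, chr4:118437314-118437493, minus strand: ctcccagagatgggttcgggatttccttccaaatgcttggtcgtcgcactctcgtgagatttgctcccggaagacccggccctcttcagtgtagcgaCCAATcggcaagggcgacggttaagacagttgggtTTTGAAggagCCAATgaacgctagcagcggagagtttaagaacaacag
Plk4, chr3:40799801-40799980, plus strand: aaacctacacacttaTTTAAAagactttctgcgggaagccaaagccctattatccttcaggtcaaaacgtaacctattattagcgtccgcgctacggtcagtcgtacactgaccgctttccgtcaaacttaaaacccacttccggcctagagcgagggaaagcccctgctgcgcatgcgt

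In windows of 250 bases before to 50 bases after the start, found for 43 of the 52 genes, TTTGAA was present on either strand in 32 genes (74.4%), against 20.2% of the 27018 genes with a window and 14.6% of the 11843 of these that were tested. Within 50 bases of the start it was present in 29 (67.4%), against 3.89% of tested genes. CCAAT was found in 32 (74.4%), against 42.9% of tested genes, and TTTAAA in 11 (25.6%), against 11.2%. In the 46 windows of these 43 genes 2 pairs of motifs overlapped. Of the genes with a window, TTTGAA was found in 27 of the 35 that were higher in Atf3-OE cells and in 4 of the 5 that were lower, and Cenpe, the fifth, held TTTAAA and CCAAT. None of the motifs was found in Kif18a, Mad2l1, Nuf2, Nusap1 and Pttg1. Ccna2, Cdc25c, Aurkb, Kif20a, Tpx2, Incenp, Spc24, Foxm1 and Smc4 were not searched.

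Most of the genes were higher in both overexpressing lines than in the control line, by amounts that were mostly under 2-fold. In Atf3-OE cells 43 of the 52 (82.7%) were higher, 5 were lower and 4 did not pass the test, with a median log2 fold change of 0.43 over control cells. In Atf4-OE cells 46 (88.5%) were higher, none was lower and 6 did not pass, with a median of 0.53. These calls come from edgeR's quasi-likelihood test with an adjusted p under 0.05 over all 18244 genes. Both comparisons share the 5 control libraries. As background, 73.2% of all tested genes passed the test in Atf3-OE cells, 36.8% as higher and 36.3% as lower, and 61.6% passed in Atf4-OE cells, 31.9% as higher and 29.7% as lower. The median over all tested genes was -0.02 in Atf3-OE cells and 0.00 in Atf4-OE cells. Because the 52 genes are well expressed, the 9951 tested genes with a mean of at least 10 CPM are a closer background: of these 51.8% were higher and 31.5% lower in Atf3-OE cells (median 0.12), and 44.0% were higher and 29.6% lower in Atf4-OE cells (median 0.06).

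All 5 Atf3-OE libraries lay above all 5 control libraries for 39 of the genes, and all below them for 2, against 32% and 28.7% of all tested genes. For Atf4-OE libraries this held for 43 above and 0 below, against 26.1% and 21.8%. At least 2-fold higher were Plk4 and Aurkb in Atf3-OE cells, against 7.12% of tested genes, and Ccnf, Plk4 and Aurkb in Atf4-OE cells, against 4.19%. The shares in this paragraph are over all tested genes, and were not taken over the closer background of genes with at least 10 CPM. The count of 0 lower genes in Atf4-OE cells was also 0 at an unadjusted p under 0.05, with DESeq2 and with limma-voom. In bulk RNA more cells in G2 and mitosis cannot be told apart from more RNA of these genes per cell. Other scalings of the libraries shifted the median of all genes and that of these genes together. With TMM, RLE (relative log expression), upper-quartile scaling and plain library totals alike, the median of the 52 genes was 0.44 above that of all genes in Atf3-OE cells and 0.53 above it in Atf4-OE cells. A scaling factor shifts all genes of a library alike, so this gap could not change and its sameness tests nothing. Other filters on low counts did move it. The gap was 0.37 in Atf3-OE and 0.50 in Atf4-OE cells with a filter at 1 CPM, and 0.59 in both with no filter.

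**Figure D1:**
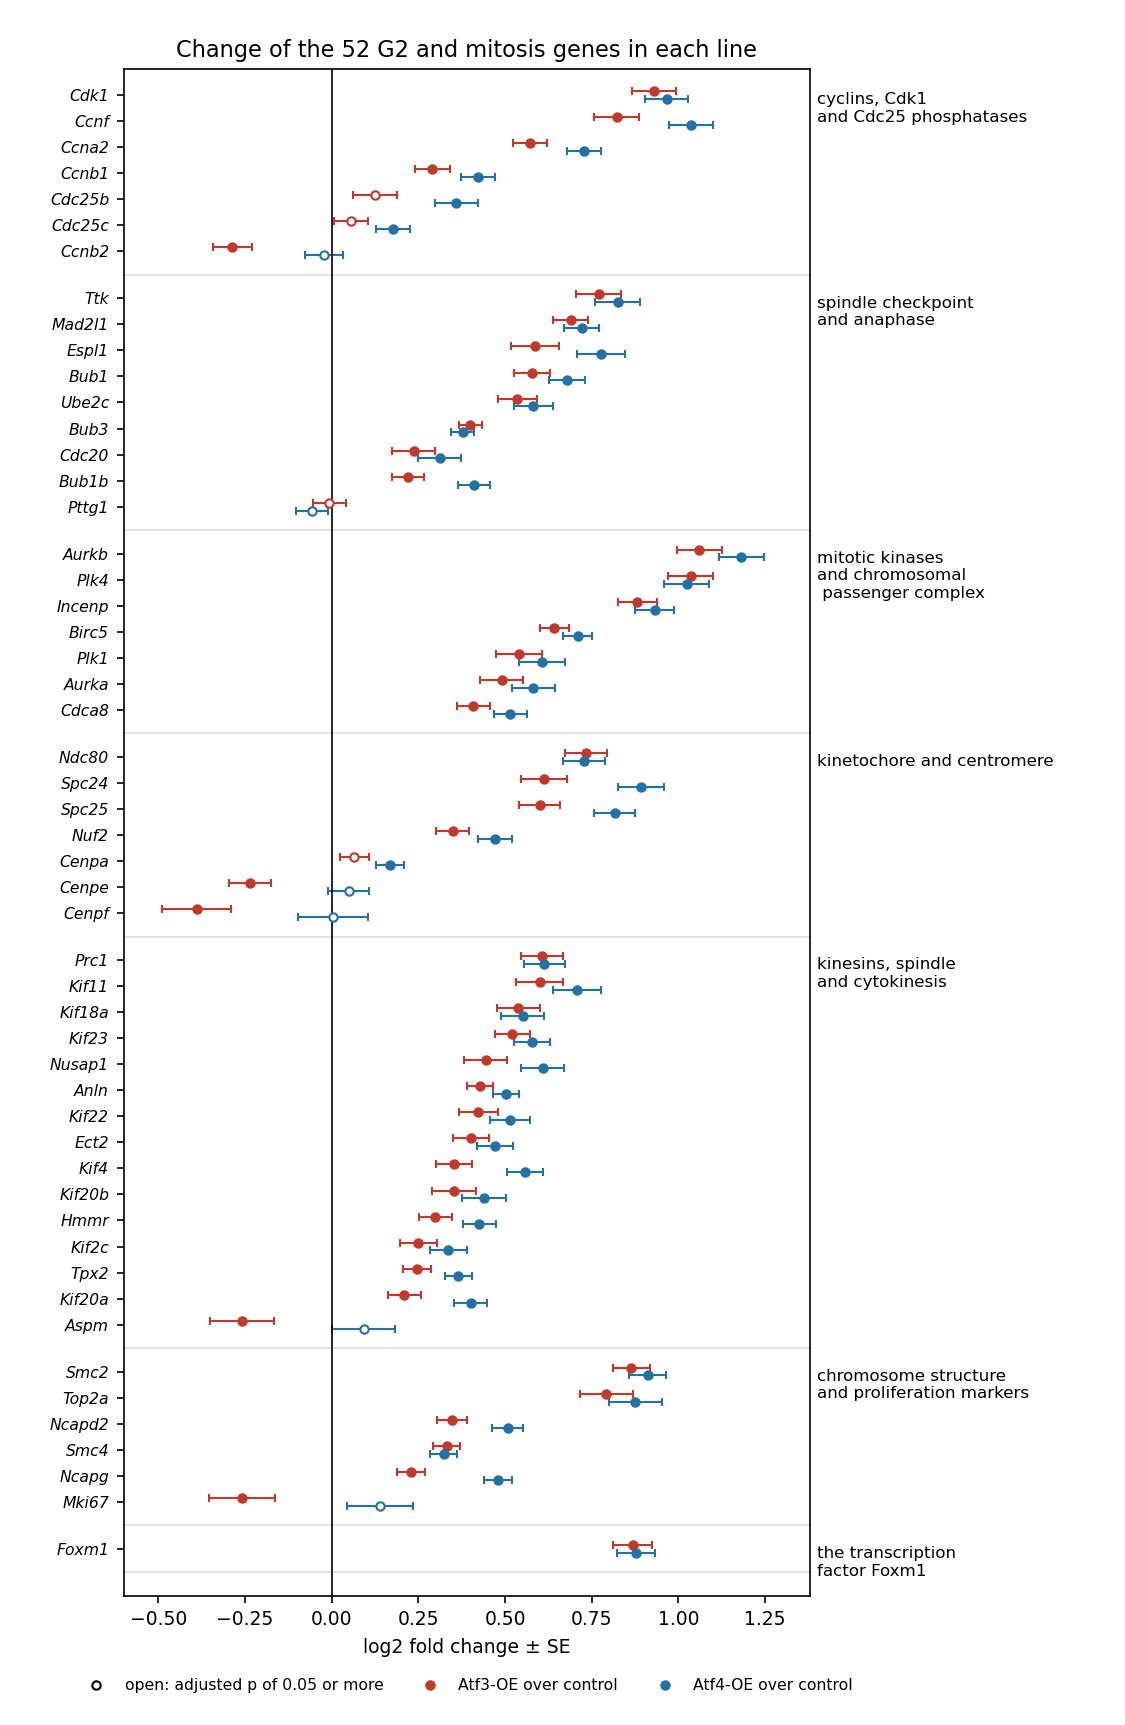
Log2 fold change over control cells (x axis) with its standard error for each of the 52 genes (rows, by role), in Atf3-OE cells (red) and Atf4-OE cells (blue), with open points where the adjusted p was 0.05 or more. Nearly all points lie right of 0 and reach 1.18 (Aurkb in Atf4-OE cells), while Ccnb2, Cenpe, Cenpf, Aspm and Mki67 lie left of 0 with filled points in Atf3-OE cells. Open points just left of 0 are Ccnb2 in Atf4-OE cells and Pttg1 in both lines.

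Of the 7 cyclins, Cdk1 and Cdc25 phosphatases, 4 were higher and 1 was lower in Atf3-OE cells, with a median log2 fold change of 0.29. The share of higher genes is near the 51.8% of tested genes with at least 10 CPM. In Atf4-OE cells 6 were higher and none lower, with a median of 0.42, against 44.0% higher of such genes. Cdk1 (ENSMUSG00000019942, chr10:69335146-69352938, minus strand), the kinase that drives entry into mitosis, had 117, 106, 113, 108 and 119 CPM in Atf3-OE cells and 108, 119, 111, 123 and 115 CPM in Atf4-OE cells. Cdk1 in control cells had 53.6, 52.7, 57.7, 69.4 and 61.5 CPM. Every library of both overexpressing lines was above every control library. Its log2 fold change over control cells was 0.93 ± 0.06 (SE, adjusted p = 1.74e-10) in Atf3-OE cells and 0.97 ± 0.06 (SE, adjusted p = 2.74e-10) in Atf4-OE cells. Ccnf (ENSMUSG00000072082, chr17:24222198-24251484, minus strand), which encodes cyclin F, a substrate receptor of an SCF ubiquitin ligase, had 75.3, 71.9, 69.5, 73.9 and 69.6 CPM in Atf3-OE cells and 85.0, 82.9, 82.3, 86.3 and 81.1 CPM in Atf4-OE cells. Ccnf in control cells had 37.8, 33.3, 42.8, 46.7 and 42.9 CPM. The 3 lines did not overlap, with Atf4-OE highest and control lowest. Over control cells Ccnf changed by 0.82 ± 0.06 (SE, adjusted p = 1.19e-09) in Atf3-OE cells and by 1.04 ± 0.06 (SE, adjusted p = 1.29e-10) in Atf4-OE cells.

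Ccnb1 (ENSMUSG00000041431, chr13:100778650-100786570, minus strand), the cyclin B partner of Cdk1, had 151, 152, 142, 148 and 147 CPM in Atf3-OE cells and 166, 165, 162, 164 and 152 CPM in Atf4-OE cells. Ccnb1 in control cells had 118, 105, 119, 134 and 128 CPM. The control libraries were again below all others, but by less: the log2 fold change was 0.29 ± 0.05 (SE, adjusted p = 3.79e-05) in Atf3-OE cells and 0.42 ± 0.05 (SE, adjusted p = 6.70e-07) in Atf4-OE cells. Near-identical pseudogenes of Ccnb1 (at least 95% identity over at least 300 bases) held at most 1.42% of its counts, so little of the signal was counted there. Ccna2, cyclin A2, which binds Cdk2 and Cdk1, ranged over 154 to 165 CPM in Atf3-OE libraries, 169 to 182 CPM in Atf4-OE libraries and 93.0 to 120.2 CPM in control libraries, without overlap between any of the lines. Cdc25b, a phosphatase that activates Cdk1, was at 37.6 to 41.1 CPM in Atf3-OE libraries, 40.6 to 51.0 CPM in Atf4-OE libraries and 32.9 to 40.7 CPM in control libraries, and it changed by 0.36 ± 0.06 (SE, adjusted p = 6.51e-05) in Atf4-OE cells and did not pass the test in Atf3-OE cells, at 0.12 ± 0.06 (SE, adjusted p = 0.0821), except without control library 4 (0.15, adjusted p = 0.0447) or any filter (0.15, adjusted p = 0.0308). Its relative Cdc25c was at 0.06 ± 0.05 (SE, adjusted p = 0.32) in Atf3-OE cells and 0.18 ± 0.05 (SE, adjusted p = 0.00400) in Atf4-OE cells, and 12.7% of its exon bases are shared with another gene.

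Ccnb2 (ENSMUSG00000032218, chr9:70407692-70421547, minus strand), the other mitotic B-type cyclin, went against its group. It had 37.4, 38.3, 33.8, 40.2 and 34.8 CPM in Atf3-OE cells and 47.6, 45.7, 44.4, 43.9 and 40.0 CPM in Atf4-OE cells. Ccnb2 in control cells had 44.6, 41.6, 43.4, 46.4 and 48.8 CPM. All Atf3-OE libraries were below all control libraries, and the Atf4-OE and control libraries overlapped. The log2 fold change was -0.29 ± 0.06 (SE, adjusted p = 1.41e-04) in Atf3-OE cells and -0.02 ± 0.06 (SE, adjusted p = 0.751) in Atf4-OE cells. Ccnb1 and Ccnb2 thus passed the test in opposite directions in Atf3-OE cells.

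The 7 mitotic kinases and members of the chromosomal passenger complex were all higher in both lines, with medians of 0.64 in Atf3-OE cells and 0.71 in Atf4-OE cells. The shares of higher genes among tested genes with at least 10 CPM were 51.8% and 44.0% in these lines. Aurkb (ENSMUSG00000020897, chr11:69045647-69051664, plus strand), the kinase of the passenger complex, which corrects chromosome attachments, had 72.4, 68.5, 67.8, 70.5 and 70.8 CPM in Atf3-OE cells and 77.3, 76.3, 76.8, 76.4 and 73.7 CPM in Atf4-OE cells. Aurkb in control cells had 28.6, 29.5, 35.5, 39.7 and 34.3 CPM. No overexpressing library was near a control library, and the means were 70.0 ± 1.86 CPM in Atf3-OE cells, 76.1 ± 1.39 CPM in Atf4-OE cells and 33.5 ± 4.55 CPM in control cells (SD, n = 5 each). Its log2 fold change of 1.06 ± 0.06 (SE, adjusted p = 4.33e-11) in Atf3-OE cells and 1.18 ± 0.06 (SE, adjusted p = 3.03e-11) in Atf4-OE cells was the largest of the 52 genes in both comparisons.

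The scaffold Incenp, which activates Aurkb, changed by 0.88 ± 0.06 (SE, adjusted p = 7.32e-11) in Atf3-OE cells and 0.93 ± 0.06 (SE, adjusted p = 9.23e-11) in Atf4-OE cells. The remaining subunits rose less: Birc5, or survivin, by 0.64 ± 0.04 (SE, adjusted p = 9.67e-11) and 0.71 ± 0.04 (SE, adjusted p = 7.15e-11), and Cdca8, or borealin, by 0.41 ± 0.05 (SE, adjusted p = 3.16e-07) and 0.52 ± 0.05 (SE, adjusted p = 2.82e-08), in the same order of lines. Plk4 (ENSMUSG00000025758, chr3:40800019-40816883, plus strand), the kinase that starts centriole duplication, had 37.2, 35.0, 36.9, 33.3 and 35.2 CPM in Atf3-OE cells and 31.8, 36.5, 33.5, 37.1 and 37.6 CPM in Atf4-OE cells. Plk4 in control cells had 16.1, 15.3, 17.7, 20.1 and 17.5 CPM. Its control libraries were all under the lowest overexpressing library, with log2 fold changes of 1.04 ± 0.07 (SE, adjusted p = 6.52e-11) and 1.02 ± 0.07 (SE, adjusted p = 1.96e-10) in Atf3-OE and Atf4-OE cells. Plk1 (ENSMUSG00000030867, chr7:122159439-122169873, plus strand), the kinase of mitotic entry and spindle formation, had 107, 101, 96.6, 110.5 and 100.4 CPM in Atf3-OE cells and 114, 106, 109.9, 107 and 103 CPM in Atf4-OE cells. Plk1 in control cells had 67.0, 59.8, 68.1, 83.8 and 75.4 CPM. Here too the groups did not overlap, and the changes were 0.54 ± 0.07 (SE, adjusted p = 6.06e-07) in Atf3-OE cells and 0.61 ± 0.07 (SE, adjusted p = 2.48e-07) in Atf4-OE cells. Aurka, the kinase of spindle poles, ranged over 44.6 to 51.4 CPM in Atf3-OE libraries, 45.4 to 53.8 CPM in Atf4-OE libraries and 29.6 to 38.2 CPM in control libraries.

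Of 9 spindle checkpoint and anaphase genes, 8 were higher in Atf3-OE cells (median 0.54) and 8 in Atf4-OE cells (median 0.58). As background, 51.8% and 44.0% of tested genes with at least 10 CPM were higher in these lines. Cdc20 (ENSMUSG00000006398, chr4:118432901-118437352, minus strand), the activator of the anaphase-promoting complex, had 158, 153, 144, 171 and 149 CPM in Atf3-OE cells and 172, 164, 169, 162 and 148 CPM in Atf4-OE cells. Cdc20 in control cells had 126, 114, 128, 148 and 141 CPM. Control library 4 reached into the range of the other lines, and the changes were small, at 0.24 ± 0.06 (SE, adjusted p = 0.00213) in Atf3-OE cells and 0.31 ± 0.06 (SE, adjusted p = 2.56e-04) in Atf4-OE cells. The Atf3-OE call was lost with upper-quartile scaling (log2 fold change 0.12, adjusted p = 0.0962) and with plain totals (0.10, adjusted p = 0.156). Per kilobase of annotated exon Cdc20 had the highest level of the 52 genes in control cells, 70.4 CPM per kb, followed by Tpx2 at 34.4 and Plk1 at 32.2 CPM per kb, and the lowest were Plk4 at 2.53 and Kif18a at 2.34 CPM per kb.

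The checkpoint kinases differed in size of change. Ttk (Mps1), which starts checkpoint signalling at kinetochores, was at 28.1 to 29.9 CPM in Atf3-OE libraries, 28.3 to 31.0 CPM in Atf4-OE libraries and 13.7 to 19.6 CPM in control libraries, with log2 fold changes of 0.77 ± 0.06 (SE, adjusted p = 3.57e-09) in Atf3-OE cells and 0.83 ± 0.06 (SE, adjusted p = 3.18e-09) in Atf4-OE cells. Bub1, which recruits the passenger complex to centromeres, changed by 0.58 ± 0.05 (SE, adjusted p = 9.39e-09) and 0.68 ± 0.05 (SE, adjusted p = 2.27e-09) in these lines. Bub1b (BubR1), a part of the inhibitor that holds Cdc20, was nearer to the control level, at 80.5 to 86.5 CPM in Atf3-OE libraries, 91.6 to 101 CPM in Atf4-OE libraries and 65.7 to 81.3 CPM in control libraries. Its change was 0.22 ± 0.05 (SE, adjusted p = 3.03e-04) in Atf3-OE cells, a call lost with upper-quartile scaling (0.10, adjusted p = 0.0614) and plain totals (0.08, adjusted p = 0.119), and 0.41 ± 0.05 (SE, adjusted p = 3.74e-07) in Atf4-OE cells.

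Mad2l1 (Mad2), the other main part of that inhibitor, ranged over 59.4 to 67.0 CPM in Atf3-OE libraries, 62.4 to 69.1 CPM in Atf4-OE libraries and 35.6 to 43.8 CPM in control libraries, without overlap with control cells. Bub3, which docks Bub1 and Bub1b, ranged over 128 to 136 CPM in Atf3-OE libraries, 122 to 132 CPM in Atf4-OE libraries and 94.5 to 104 CPM in control libraries. Of the anaphase genes, Ube2c, the ubiquitin-conjugating enzyme of the anaphase-promoting complex, changed by 0.54 ± 0.06 (SE, adjusted p = 6.15e-08) in Atf3-OE cells and 0.58 ± 0.06 (SE, adjusted p = 4.02e-08) in Atf4-OE cells. Espl1, or separase, the protease that cuts cohesin, changed by 0.59 ± 0.07 (SE, adjusted p = 4.39e-07) and 0.78 ± 0.07 (SE, adjusted p = 2.05e-08). Its inhibitor securin, encoded by Pttg1, was the only gene of the 52 that passed in neither comparison: it was at 23.6 to 25.9 CPM in Atf3-OE libraries, 21.6 to 25.5 CPM in Atf4-OE libraries and 24.2 to 25.8 CPM in control libraries, with log2 fold changes of -0.01 ± 0.05 (SE, adjusted p = 0.909) in Atf3-OE cells and -0.06 ± 0.05 (SE, adjusted p = 0.304) in Atf4-OE cells. Pttg1 passed as lower in Atf3-OE cells with upper-quartile scaling (-0.13, adjusted p = 0.0225) and plain totals (-0.14, adjusted p = 0.00888), and in Atf4-OE cells with upper-quartile scaling (-0.11, adjusted p = 0.0473).

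Of the 7 kinetochore and centromere genes, 4 were higher and 2 lower in Atf3-OE cells, with a median of 0.35, shares near the 51.8% and 31.5% of tested genes with at least 10 CPM. In Atf4-OE cells 5 were higher and none lower, with a median of 0.47, against 44.0% higher and 29.6% lower of such genes. The 4 subunits of the Ndc80 complex, which binds spindle microtubules, were all higher in both lines: Ndc80 by 0.73 ± 0.06 in Atf3-OE cells and 0.73 ± 0.06 in Atf4-OE cells, Nuf2 by 0.35 ± 0.05 and 0.47 ± 0.05, Spc24 by 0.61 ± 0.07 and 0.89 ± 0.07, and Spc25 by 0.60 ± 0.06 and 0.82 ± 0.06 (log2 ± SE). The highest adjusted p-value among these 8 edgeR tests was that of Nuf2 in Atf3-OE cells, 3.34e-06. Cenpa, the histone H3 variant of centromeres, ranged over 97.6 to 106 CPM in Atf3-OE libraries, 104 to 112 CPM in Atf4-OE libraries and 89.7 to 104 CPM in control libraries, and passed the test in Atf4-OE cells, at 0.17 ± 0.04 (SE, adjusted p = 0.00145), but not in Atf3-OE cells, at 0.07 ± 0.04 (SE, adjusted p = 0.157).

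Cenpf (ENSMUSG00000026605, chr1:189640606-189688086, minus strand), a large coiled-coil protein of the outer kinetochore, had 111, 123, 129, 112 and 140.1 CPM in Atf3-OE cells and 137, 151, 135, 192 and 193 CPM in Atf4-OE cells. Cenpf in control cells had 146, 151, 174, 182 and 152 CPM. All Atf3-OE libraries were below all control libraries, while Atf4-OE libraries 4 and 5 were above all controls, library 2 was among them and libraries 1 and 3 were below all controls. The log2 fold change was -0.39 ± 0.10 (SE, adjusted p = 0.00187) in Atf3-OE cells, the largest fall of the 52 genes, and 0.00 ± 0.10 (SE, adjusted p = 0.976) in Atf4-OE cells. Cenpe (ENSMUSG00000045328, chr3:135212537-135273611, plus strand), the kinesin that moves chromosomes to the spindle equator, had 55.1, 58.2, 61.3, 54.5 and 67.7 CPM in Atf3-OE cells and 68.0, 69.4, 70.2, 76.1 and 78.1 CPM in Atf4-OE cells. Cenpe in control cells had 67.8, 67.0, 69.0, 78.8 and 67.1 CPM. Only Atf3-OE library 5, at 67.7 CPM, reached the control range, and control library 4 stood above the other controls. Its change was -0.24 ± 0.06 (SE, adjusted p = 0.00183) in Atf3-OE cells and 0.05 ± 0.06 (SE, adjusted p = 0.501) in Atf4-OE cells.

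**Figure D2:**
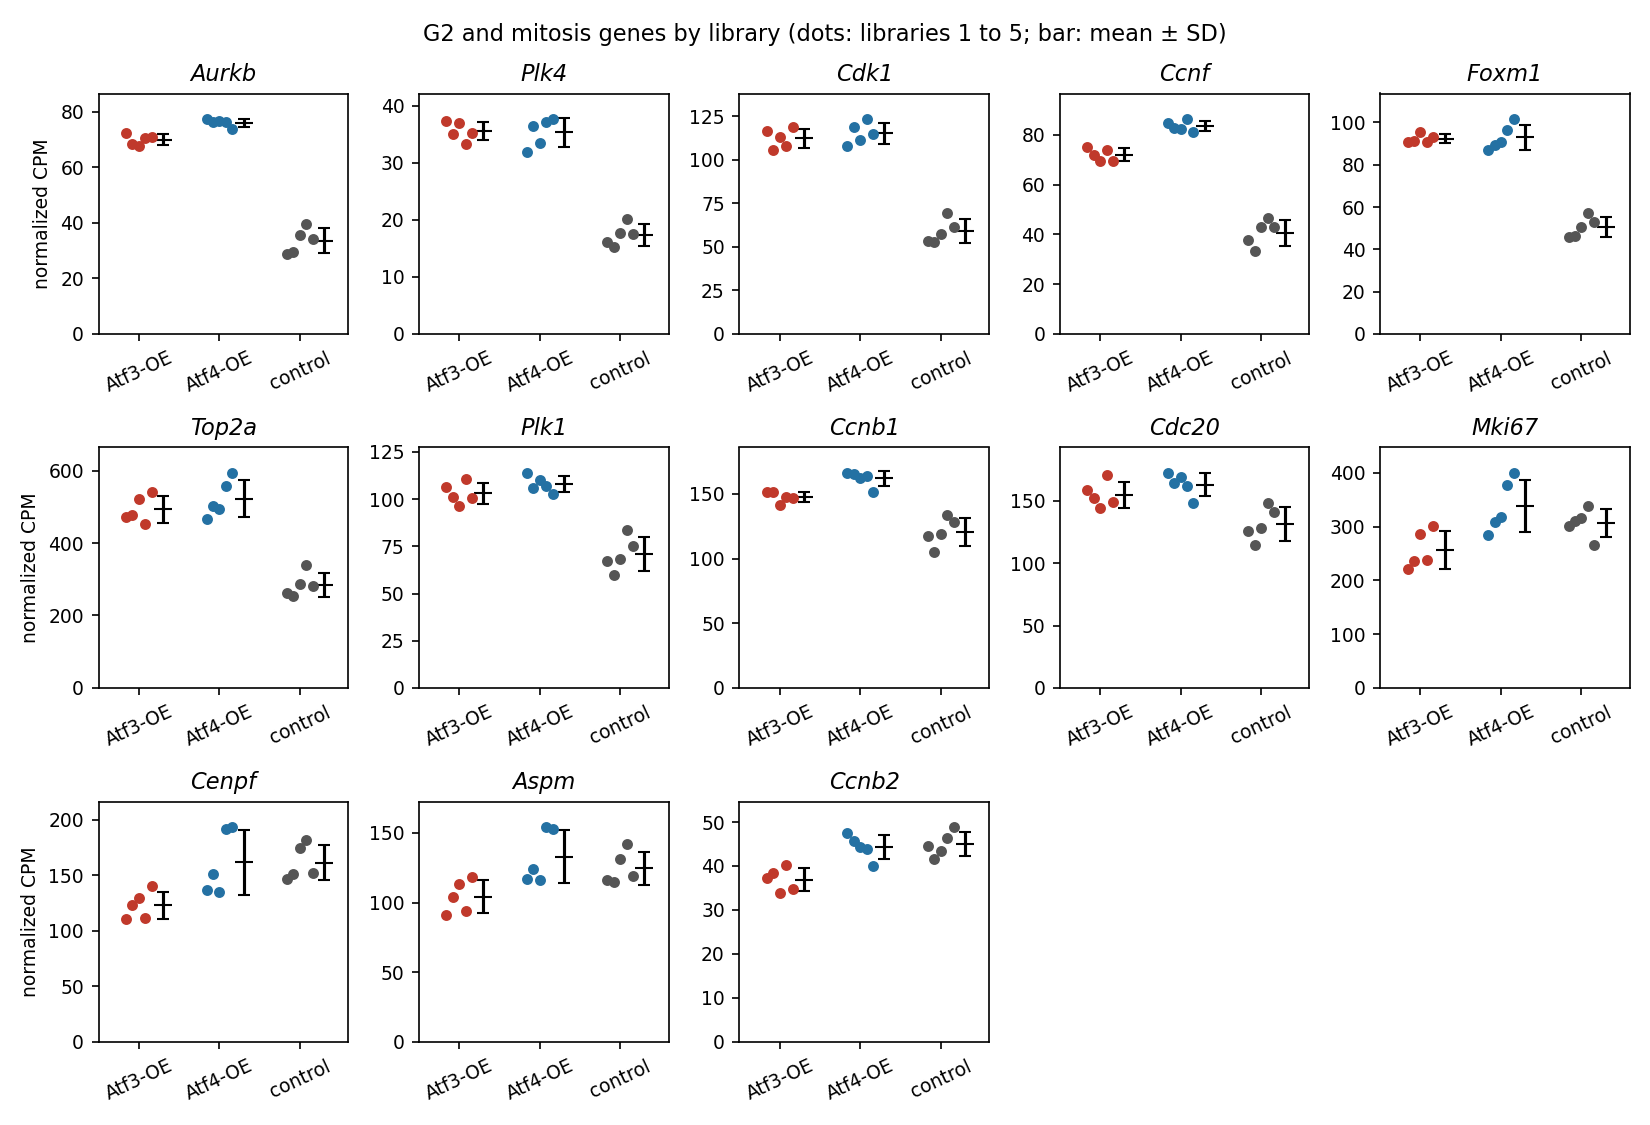
Normalized CPM (y axes, from 0) of 13 G2 and mitosis genes in each library of the Atf3-OE, Atf4-OE and control lines (dots, libraries 1 to 5 from left to right), with the mean and SD of the 5 libraries. For Aurkb the Atf3-OE and Atf4-OE libraries lie at 67.8 to 77.3 CPM, above control libraries at 28.6 to 39.7 CPM, whereas for Cenpf and Ccnb2 the Atf3-OE libraries lie below the control libraries.

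Of the 15 kinesins and genes of the spindle and cytokinesis, 14 were higher in Atf3-OE cells (median 0.40) and 14 in Atf4-OE cells (median 0.50), and Aspm was the exception. As background, 51.8% and 44.0% of tested genes with at least 10 CPM were higher in these lines. The largest rises in Atf3-OE cells were in Prc1, which bundles the microtubules of the central spindle, and Kif11, the motor that separates spindle poles. Prc1 ranged over 145 to 153 CPM in Atf3-OE libraries, 144 to 156 CPM in Atf4-OE libraries and 83.3 to 114 CPM in control libraries, and changed by 0.61 ± 0.06 (SE, adjusted p = 3.67e-08) in Atf3-OE cells and 0.61 ± 0.06 (SE, adjusted p = 6.43e-08) in Atf4-OE cells. Kif11 was at 125 to 143 CPM in Atf3-OE libraries, 135 to 157 CPM in Atf4-OE libraries and 78.9 to 108 CPM in control libraries, with changes of 0.60 ± 0.07 (SE, adjusted p = 2.40e-07) and 0.71 ± 0.07 (SE, adjusted p = 5.22e-08). Both had control libraries below all others.

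In Atf3-OE cells the next largest rises were those of Kif18a, a motor that limits chromosome movements, at 0.54 ± 0.06 in Atf3-OE cells and 0.55 ± 0.06 in Atf4-OE cells, and of Kif23, the motor of the central spindle, at 0.52 ± 0.05 and 0.58 ± 0.05 (log2 ± SE). Nusap1, a microtubule-stabilizing protein, was at 0.44 ± 0.06 and 0.61 ± 0.06. The cytokinesis genes Anln, an actin-binding scaffold of the contractile ring, and Ect2, the activator of RhoA there, rose by 0.43 ± 0.04 and 0.40 ± 0.05 in Atf3-OE cells, and by 0.50 ± 0.04 and 0.47 ± 0.05 in Atf4-OE cells. Kif22, a chromosome arm motor, rose by 0.42 ± 0.06 in Atf3-OE cells and 0.51 ± 0.06 in Atf4-OE cells. Kif4, a motor of chromosome arms and the central spindle, rose by 0.35 ± 0.05 and 0.56 ± 0.05, Kif20b by 0.35 ± 0.06 and 0.44 ± 0.06, and Hmmr, a spindle protein, by 0.30 ± 0.05 and 0.43 ± 0.05. The highest adjusted p-value among these edgeR tests was that of Kif20b in Atf3-OE cells, 6.15e-05.

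The smallest rises of this group were in Tpx2, the activator of Aurka, in Kif2c, a microtubule-depolymerizing motor, and in Kif20a, a motor of cytokinesis. Tpx2 ranged over 187 to 194 CPM in Atf3-OE libraries, 201 to 215 CPM in Atf4-OE libraries and 147 to 178 CPM in control libraries, and changed by 0.25 ± 0.04 (SE, adjusted p = 2.17e-05) in Atf3-OE cells and 0.37 ± 0.04 (SE, adjusted p = 2.65e-07) in Atf4-OE cells. Kif2c changed by 0.25 ± 0.05 (SE, adjusted p = 4.37e-04) and 0.34 ± 0.05 (SE, adjusted p = 2.84e-05), and its Atf3-OE call was lost with plain totals (0.11, adjusted p = 0.0723). Kif20a changed by 0.21 ± 0.05 (SE, adjusted p = 6.57e-04) and 0.40 ± 0.05 (SE, adjusted p = 6.90e-07). The Atf3-OE call of Kif20a was lost with upper-quartile scaling (0.09, adjusted p = 0.106) and plain totals (0.07, adjusted p = 0.189), and 29.3% of its exon bases are shared with another gene, which cannot be told apart in counts that ignore strand. More than 10% of exon bases were shared in 7 of the 52 genes, namely Ccna2, Cdc25c, Kif20a, Kif4, Prc1, Ube2c and Ncapg.

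Aspm (ENSMUSG00000033952, chr1:139454772-139494091, plus strand), a spindle pole protein whose human form is mutated in primary microcephaly, had 91.5, 104, 113, 93.6 and 119 CPM in Atf3-OE cells and 117, 124, 116, 154 and 153 CPM in Atf4-OE cells. Aspm in control cells had 116, 115, 131, 142 and 119 CPM. Atf3-OE libraries 1, 2, 3 and 4 were below all control libraries, library 5 was within them, and Atf4-OE libraries 4 and 5 were above them. The change was -0.26 ± 0.09 (SE, adjusted p = 0.0163) in Atf3-OE cells and 0.09 ± 0.09 (SE, adjusted p = 0.392) in Atf4-OE cells.

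Among 6 genes of chromosome structure and proliferation, 5 were higher in each overexpressing line, with medians of 0.34 in Atf3-OE cells and 0.49 in Atf4-OE cells. The shares of higher genes among tested genes with at least 10 CPM were 51.8% and 44.0% in these lines. Top2a (ENSMUSG00000020914, chr11:98992943-99024189, minus strand), the topoisomerase that untangles replicated chromosomes, had 472, 478, 522, 451 and 542 CPM in Atf3-OE cells and 466, 502, 494, 558 and 593 CPM in Atf4-OE cells. Top2a in control cells had 263, 253, 286, 338 and 283 CPM. Every overexpressing library was above every control library. Its change was 0.79 ± 0.08 (SE, adjusted p = 2.20e-08) in Atf3-OE cells and 0.88 ± 0.08 (SE, adjusted p = 1.22e-08) in Atf4-OE cells. Of the condensin subunits, which compact mitotic chromosomes, Smc2 changed by 0.86 ± 0.05 (SE, adjusted p = 4.12e-11) in Atf3-OE cells and 0.91 ± 0.05 (SE, adjusted p = 5.74e-11) in Atf4-OE cells. Its partner Smc4 changed by 0.33 ± 0.04 (SE, adjusted p = 3.83e-07) and 0.32 ± 0.04 (SE, adjusted p = 9.57e-07), and did so without overlap with control cells. Ncapd2 and Ncapg, subunits of condensin I, changed by 0.35 ± 0.04 and 0.23 ± 0.04 in Atf3-OE cells, and by 0.51 ± 0.04 and 0.48 ± 0.04 in Atf4-OE cells (log2 ± SE). The Atf3-OE call of Ncapg was lost with plain totals (0.09, adjusted p = 0.0511).

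Mki67 (ENSMUSG00000031004, chr7:135689784-135716361, minus strand), the proliferation marker Ki-67, which coats mitotic chromosomes, had 220.2, 236, 286, 239 and 300.5 CPM in Atf3-OE cells and 285, 309, 317, 377 and 399 CPM in Atf4-OE cells. Mki67 in control cells had 301, 311, 316, 338 and 265 CPM. Atf3-OE libraries 3 and 5 were within the control range and the other 3 were below it, and Atf4-OE libraries 4 and 5 were above it. The log2 fold change was -0.26 ± 0.09 (SE, adjusted p = 0.0208) in Atf3-OE cells and 0.14 ± 0.09 (SE, adjusted p = 0.213) in Atf4-OE cells. Top2a and Mki67, which are both used as proliferation markers, thus passed the test in opposite directions in Atf3-OE cells.

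Foxm1 (ENSMUSG00000001517, chr6:128362967-128376146, plus strand), the transcription factor that activates many of these genes, had 90.7, 91.4, 95.6, 90.7 and 93.2 CPM in Atf3-OE cells and 87.2, 89.2, 90.7, 96.4 and 102 CPM in Atf4-OE cells. Foxm1 in control cells had 45.8, 46.3, 50.8, 57.2 and 52.8 CPM. Every overexpressing library was above every control library, and the 2 overexpressing lines overlapped. The log2 fold change was 0.87 ± 0.06 (SE, adjusted p = 7.35e-11) in Atf3-OE cells and 0.88 ± 0.06 (SE, adjusted p = 1.64e-10) in Atf4-OE cells.

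The genes that were lower in Atf3-OE cells were Ccnb2, Cenpe, Cenpf, Mki67 and Aspm, 5 of 52 (9.62%), against 36.3% of all tested genes and 31.5% of those with at least 10 CPM. Among them are the 3 genes with annotated exons over 10 kb, Cenpf at 15433 bases, Aspm at 11590 and Mki67 at 10061. Cenpe follows at 8620 bases, and Ccnb2 at 1531 bases is the shortest of the 52. Mad2l1, Prc1, Espl1, Top2a, Anln and Kif18a, also over 8000 bases, were higher. These lengths merge the exons of all annotated transcripts of a gene, so the RNA present can be much shorter. For Prc1, 812 bases made up 26.8% of its longest coding transcript, which is thus far under 8000 bases. Over the wider set of tested genes, fold change fell with length. Tested genes with at least 10 CPM and over 10000 bases had a median log2 fold change of -0.16 in Atf3-OE cells and -0.12 in Atf4-OE cells, and those of 1500 to 2500 bases had 0.22 and 0.12 in the same order of lines. Over the 52 genes length and fold change had a Spearman rho of -0.01 in Atf3-OE cells and -0.03 in Atf4-OE cells, and over the 9951 genes it was -0.21 and -0.20. These correlations use the merged lengths, are across genes that share the same libraries, and are given as a description.

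With offsets that take out a smooth trend of the counts with length in each library, an alternative chosen after seeing the data, 43 genes were higher and 2 lower in Atf3-OE cells. Cenpf (-0.15, adjusted p = 0.0592), Mki67 (-0.16, adjusted p = 0.0585) and Aspm (-0.12, adjusted p = 0.133) then missed the threshold, and Ccnb2 (-0.26, adjusted p = 0.000169) and Cenpe (-0.19, adjusted p = 0.00263) passed it. In Atf4-OE cells Mki67 (0.20, adjusted p = 0.0265) and Aspm (0.19, adjusted p = 0.0273) then passed as higher. The calls of Mki67 and Aspm in Atf3-OE cells lay near the threshold and were also lost without any one of several libraries. Mki67 missed the threshold without Atf3-OE library 1, 2 or 4 (adjusted p = 0.0688, 0.0564 and 0.0557). Aspm missed it without Atf3-OE library 1 or 4 (adjusted p = 0.0541 and 0.0519) or without control libraries 4 and 5 together (adjusted p = 0.0692). Without Atf3-OE library 1 or 4 the number of lower genes was 3.

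Within the overexpressing lines, though not within the control line, the libraries with the most Cenpf, Mki67 and Aspm were those in which other long genes were highest. The 1163 tested genes with at least 10 CPM and over 10000 bases had a median log2 deviation from their line's mean of -0.07, 0.00, 0.06, -0.05 and 0.06 in Atf3-OE libraries 1 to 5, of -0.05, -0.05, -0.04, 0.06 and 0.09 in Atf4-OE libraries 1 to 5, and of -0.02, 0.05, 0.03, 0.01 and -0.07 in control libraries 1 to 5. Atf3-OE libraries 3 and 5 and Atf4-OE libraries 4 and 5, where this value was highest, are those with the most Cenpf, Mki67 and Aspm in their lines. In the control line it was highest in library 2, which had the least Aspm, and lowest in library 5, which had the least Mki67, while Cenpf, Mki67 and Aspm were all highest in library 4.

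**Figure D3:**
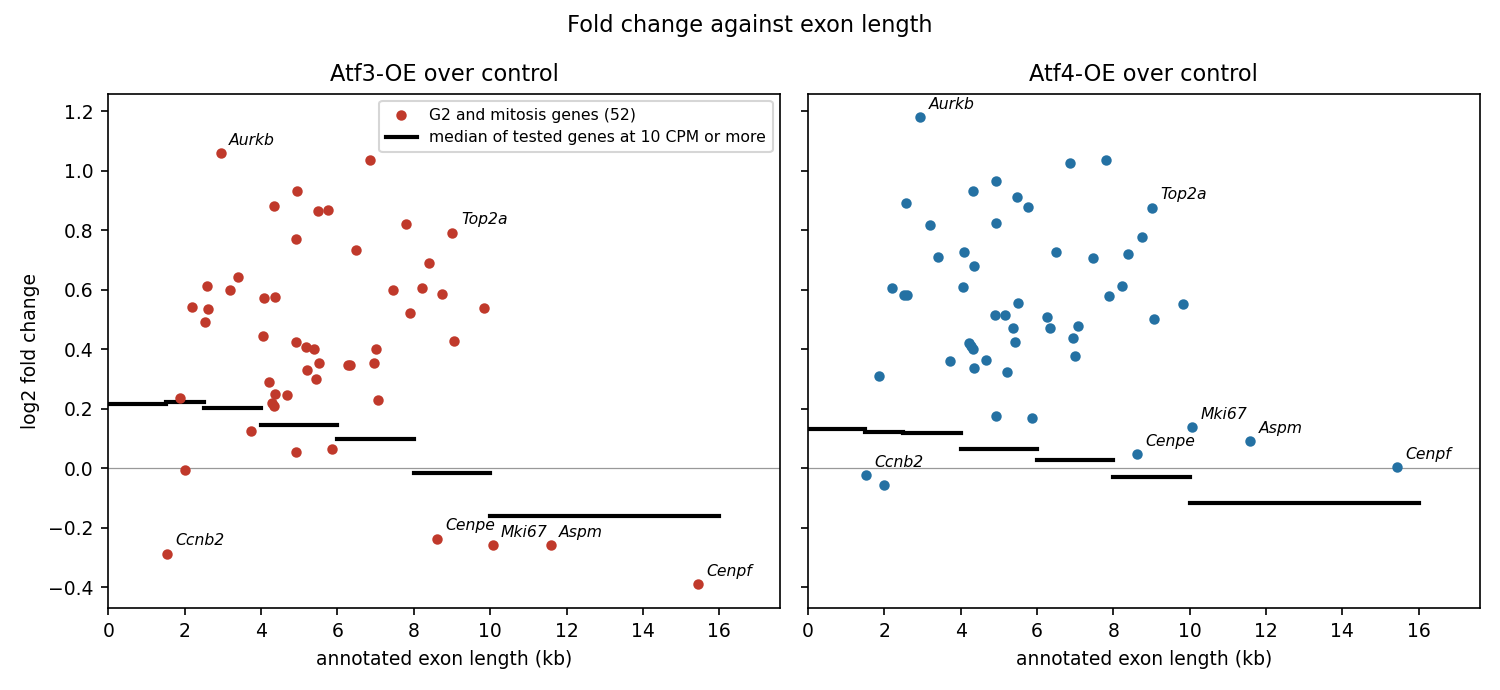
Log2 fold change over control cells (y axis) against annotated exon length in kb (x axis) for the 52 genes (dots), in Atf3-OE cells (left) and Atf4-OE cells (right). Black bars are medians of tested genes with at least 10 CPM by length, the last bar standing for all genes over 10 kb, and they go down to -0.16 in Atf3-OE cells and -0.12 in Atf4-OE cells.

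Compared directly, Atf4-OE cells had more of 22 of the 52 genes than Atf3-OE cells (42.3%), less of none, and 30 did not pass the test, with a median log2 difference of 0.10. As background, 43.6% of all tested genes differed, 19.7% as higher in Atf4-OE than in Atf3-OE cells and 23.9% as lower. Among genes with at least 10 CPM 17.8% were higher and 36.4% lower, with a median of -0.05. All Atf4-OE libraries lay above all Atf3-OE libraries for 17 of the genes, against 9.52% of all tested genes, and all below for 0, against 16.3%. Shares without overlap were not taken over genes with at least 10 CPM. No gene was lower at an unadjusted p under 0.05, with DESeq2 or with limma-voom. With plain library totals, which put the median of all genes at 0.11, 41 genes were higher, and 34.0% of all tested genes were higher and 13.0% lower.

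The largest differences were in the long genes: Mki67 at 0.40 ± 0.10 (SE, adjusted p = 0.00245), Cenpf at 0.39 ± 0.10 (SE, adjusted p = 0.00391) and Aspm at 0.35 ± 0.09 (SE, adjusted p = 0.00447), for which the lines overlapped. Cenpe, at 0.28 ± 0.06 (SE, adjusted p = 9.63e-04), and Spc24, at 0.28 ± 0.07 (SE, adjusted p = 0.00202), were higher in every Atf4-OE library than in any Atf3-OE library. Ccnb2 differed by 0.27 ± 0.06 (SE, adjusted p = 8.75e-04) and Ncapg, at 64.9 to 67.4 CPM in Atf4-OE libraries against 54.2 to 58.2 CPM in Atf3-OE libraries, by 0.25 ± 0.04 (SE, adjusted p = 6.69e-05), the lowest adjusted p of the 52. By role, 6 of 7 kinetochore and centromere genes and 5 of 7 cyclins, Cdk1 and Cdc25 phosphatases were higher in Atf4-OE cells, among them Ccnf (0.21 ± 0.06), Spc25 (0.22 ± 0.06) and Ccna2 (0.16 ± 0.05, log2 ± SE). As background, 17.8% of tested genes with at least 10 CPM were higher in Atf4-OE than in Atf3-OE cells. Of the 7 mitotic kinases and passenger complex members none passed the test, the largest difference being that of Aurkb, at 0.12 ± 0.06 (SE, adjusted p = 0.132). Aurkb did not overlap between the lines, and it passed with upper-quartile scaling (0.18, adjusted p = 0.0235), plain totals (0.22, adjusted p = 0.00831) and the 2 lines alone in the fit (0.14, adjusted p = 0.00482). Cdk1 (0.04 ± 0.06), Foxm1 (0.01 ± 0.05), Plk4 (-0.01 ± 0.06) and Ndc80 (-0.01 ± 0.06) had differences about as small as their standard errors or smaller.

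The calls of 7 genes in this comparison, with adjusted p-values of 0.0211 to 0.0475, were lost without single libraries. That of Ccnb1, at 0.13 ± 0.05 (SE, adjusted p = 0.0385), was lost without any of Atf3-OE libraries 1, 3, 4 and 5 or Atf4-OE libraries 1 to 4 (adjusted p = 0.0515 to 0.0953). For Cenpa these were control library 1, Atf3-OE libraries 1 to 3 and Atf4-OE libraries 1 to 3 (adjusted p = 0.0511 to 0.112). For Nuf2 they were control library 1, Atf3-OE libraries 2 to 4 and Atf4-OE libraries 1, 2 and 4 (adjusted p = 0.0518 to 0.128). Nusap1 lost its call without Atf3-OE library 1, 3 or 4 or Atf4-OE library 1, 2 or 4 (adjusted p = 0.0575 to 0.0930). Hmmr lost it without Atf3-OE library 1, 3, 4 or 5 or Atf4-OE library 2 or 4 (adjusted p = 0.0516 to 0.0812). Espl1 lost it without Atf3-OE library 1, 2 or 3 or Atf4-OE library 4 or 5 (adjusted p = 0.0524 to 0.0830), and Tpx2 without Atf3-OE library 3 (adjusted p = 0.0526). Some of these calls were also lost with other processing. With no filter on low counts Ccnb1, Cenpa, Nuf2, Hmmr and Tpx2 missed the threshold (adjusted p = 0.0576 to 0.135). With the replicate number as a block Ccnb1, Cenpa, Nuf2, Nusap1 and Hmmr missed it (adjusted p = 0.0519 to 0.0727). With RLE Cenpa and Nuf2 did (adjusted p = 0.0511 and 0.0508).

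The genes moved together from library to library in the control line. The median SD of log2 CPM over the 52 genes was 0.061 in Atf3-OE, 0.061 in Atf4-OE and 0.133 in control libraries, whereas over tested genes with at least 10 CPM it was 0.074, 0.077 and 0.055 in these lines. In control library 4, 51 of the 52 genes were above their line mean, with a median log2 deviation of 0.17. In control libraries 1 and 2, 51 were below it in each, with median deviations of -0.06 and -0.16. Against the mean of the controls, the median of the 52 genes was 0.40 to 0.45 (log2) in the Atf3-OE libraries, 0.50 to 0.56 in the Atf4-OE libraries and -0.16 to 0.17 in the control libraries. Control libraries 4 and 5 had the most Atf3 of the controls, at 10.99 and 7.55 CPM. They also had the highest median deviations of the 52 genes, 0.17 and 0.04. Leaving them out therefore had to raise the median fold change, and says nothing on its firmness. Without these 2 libraries it was 0.47 in Atf3-OE cells and 0.59 in Atf4-OE cells. Then 46 genes were higher in each, 4 lower in Atf3-OE cells and 0 in Atf4-OE cells. Cdc25b (0.20, adjusted p = 0.0123), Cdc25c (0.12, adjusted p = 0.0399) and Cenpa (0.10, adjusted p = 0.0406) then passed as higher in Atf3-OE cells.

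**Figure D4:**
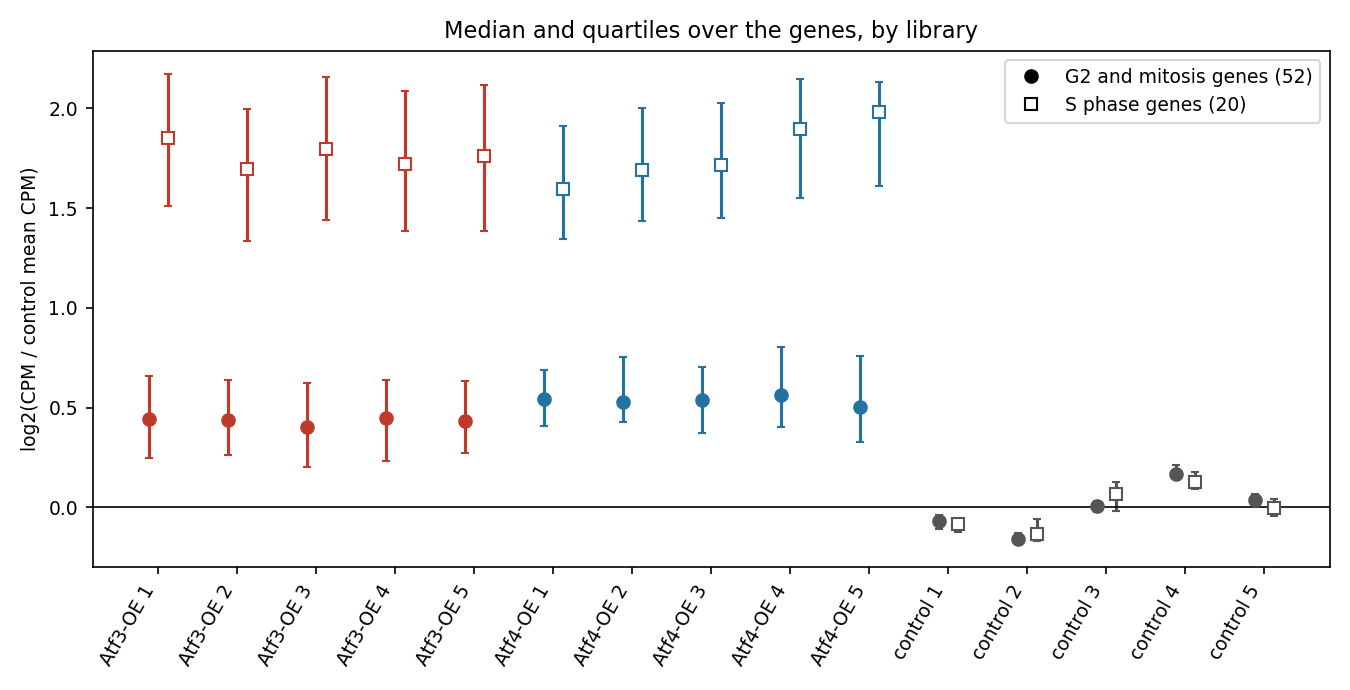
Median and quartiles over the 52 G2 and mitosis genes (filled circles) and over 20 S phase genes (open squares) of log2 CPM relative to the mean of the control libraries (y axis), for each library (x axis). The G2 and mitosis genes lie at 0.40 to 0.56 in the overexpressing libraries and at -0.16 to 0.17 in the control libraries, and the S phase genes at 1.60 to 1.98 in the overexpressing libraries.

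The rise of the G2 and mitosis genes was accompanied by a larger one of 20 S phase genes, which serve DNA replication. All 20 were higher in both lines, with median log2 fold changes of 1.75 in Atf3-OE cells and 1.77 in Atf4-OE cells, against the 0.43 and 0.53 of the 52 genes. The background for this and the following lists is the tested genes with at least 10 CPM. Of these, 51.8% were higher and 31.5% lower in Atf3-OE cells, and 44.0% were higher and 29.6% lower in Atf4-OE cells. The replication licensing gene Mcm6 changed by 2.04 ± 0.06 (SE, adjusted p = 2.19e-14) in Atf3-OE cells and 1.94 ± 0.06 (SE, adjusted p = 9.32e-14) in Atf4-OE cells, and Rrm2, a subunit of ribonucleotide reductase, by 2.11 ± 0.06 (SE, adjusted p = 2.00e-14) and 2.02 ± 0.06 (SE, adjusted p = 9.32e-14). The summed CPM of the 52 genes was 2.45 to 2.69 times that of the S phase genes in Atf3-OE libraries and 2.70 to 3.09 times in Atf4-OE libraries, against 5.65 to 5.94 times in control libraries. No library of an overexpressing line came near a control library in this ratio. The S phase genes followed the G2 and mitosis genes in the control line, where their median was lowest in library 2 (-0.13) and highest in library 4 (0.13).

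Of 14 listed MuvB, B-Myb and DREAM genes, 13 were tested, and their action at the promoters shown above was not tested. In Atf3-OE cells 11 were higher and 2 lower (median 0.36), and in Atf4-OE cells 10 were higher and 1 lower (median 0.23). Mybl2, which encodes B-Myb, was at 40.4 ± 2.31 CPM in Atf3-OE cells, 38.4 ± 5.55 CPM in Atf4-OE cells and 7.02 ± 0.794 CPM in control cells (SD, n = 5 each), and changed by 2.52 ± 0.09 (SE, adjusted p = 7.75e-14) and 2.45 ± 0.09 (SE, adjusted p = 3.08e-13) in Atf3-OE and Atf4-OE cells, more than any of the 52 genes. Rbl1 (p107), a pocket protein of DREAM, changed by 1.42 ± 0.06 (SE, adjusted p = 6.90e-13) and 1.52 ± 0.06 (SE, adjusted p = 9.92e-13). Its relative Rbl2 (p130), the pocket protein of DREAM in resting cells, changed by -0.58 ± 0.05 (SE, adjusted p = 1.58e-08) and -0.46 ± 0.05 (SE, adjusted p = 7.74e-07), and its libraries were at 32.2 to 37.9 CPM in Atf3-OE libraries, 33.3 to 41.2 CPM in Atf4-OE libraries and 49.7 to 53.6 CPM in control libraries. Tfdp1, the partner of E2F proteins, changed by 1.16 ± 0.04 (SE, adjusted p = 1.06e-13) and 0.98 ± 0.04 (SE, adjusted p = 2.15e-12).

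Among 16 further genes that control entry into mitosis, 14 were higher in each line, with medians of 0.71 in both, and G2e3 was lower in Atf3-OE cells, at -0.12 ± 0.05 (SE, adjusted p = 0.032). Pkmyt1, a kinase that inhibits Cdk1, changed by 1.48 ± 0.07 (SE, adjusted p = 3.15e-12) in Atf3-OE cells and 1.44 ± 0.07 (SE, adjusted p = 1.26e-11) in Atf4-OE cells. Pbk, a mitotic kinase, changed by 0.77 ± 0.04 (SE, adjusted p = 2.81e-12) and 0.75 ± 0.04 (SE, adjusted p = 1.13e-11). Of 29 further kinetochore and centromere genes, 26 were higher in Atf3-OE cells (median 0.58) and 28 in Atf4-OE cells (median 0.60), and none was lower in either line at an adjusted p under 0.05. Cenpu, of the inner kinetochore, changed by 1.42 ± 0.08 (SE, adjusted p = 1.37e-11) and 1.33 ± 0.08 (SE, adjusted p = 8.69e-11), and Nsl1, of the Mis12 complex, by 1.13 ± 0.07 (SE, adjusted p = 1.92e-11) and 1.25 ± 0.06 (SE, adjusted p = 1.38e-11).

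Of 21 further spindle and cytokinesis genes, 16 were higher and 2 lower in Atf3-OE cells (median 0.36), and 19 were higher and 1 lower in Atf4-OE cells (median 0.47). Tubg1, the gamma-tubulin of centrosomes, changed by 0.80 ± 0.04 (SE, adjusted p = 6.15e-13) and 0.73 ± 0.04 (SE, adjusted p = 6.06e-12). Numa1, which holds spindle poles together, was lower in both lines, at -0.59 ± 0.05 (SE, adjusted p = 6.47e-09) and -0.37 ± 0.05 (SE, adjusted p = 5.55e-06). Of 14 condensin and cohesin genes outside the 52, 10 were higher and 1 lower in each line, with medians of 0.30 in Atf3-OE cells and 0.25 in Atf4-OE cells. Cdca5 (sororin), which protects sister chromatid cohesion, changed by 1.41 ± 0.06 (SE, adjusted p = 8.69e-13) and 1.51 ± 0.06 (SE, adjusted p = 1.20e-12), and Nipbl, the cohesin loader, by -0.52 ± 0.08 (SE, adjusted p = 8.24e-06) and -0.38 ± 0.08 (SE, adjusted p = 3.52e-04).

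The 17 genes of the anaphase-promoting complex and its regulators stood closest to the control level, with 9 higher and 2 lower in each line and medians of 0.11 in Atf3-OE cells and 0.10 in Atf4-OE cells. Of tested genes with at least 10 CPM, 51.8% were higher in Atf3-OE cells (median 0.12) and 44.0% in Atf4-OE cells (median 0.06). The share of higher genes and the median of this list were near those values. Fbxo5 (Emi1), an inhibitor of the complex, was at 30.8 ± 1.46 CPM in Atf3-OE cells, 30.5 ± 1.49 CPM in Atf4-OE cells and 10.4 ± 1.69 CPM in control cells (SD, n = 5 each), a change of 1.56 ± 0.08 (SE, adjusted p = 4.32e-12) and 1.55 ± 0.08 (SE, adjusted p = 1.35e-11). The subunits Anapc2 and Anapc4 were lower, at -0.19 ± 0.04 (SE, adjusted p = 4.96e-04) and -0.13 ± 0.03 (SE, adjusted p = 7.30e-04) in Atf3-OE cells, and at -0.12 ± 0.04 (SE, adjusted p = 0.0151) and -0.14 ± 0.03 (SE, adjusted p = 4.64e-04) in Atf4-OE cells.

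**Figure D5:**
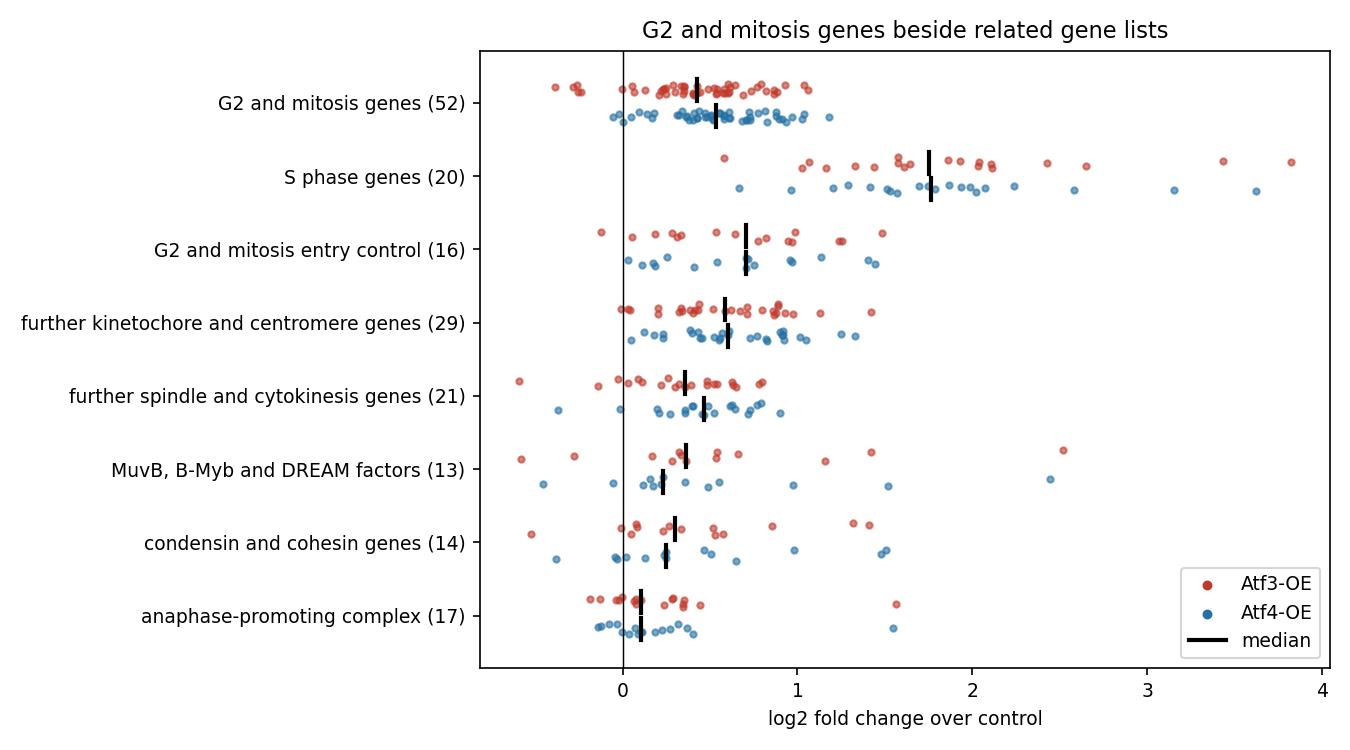
Log2 fold change over control cells (x axis) of each tested gene (dots) of the 52 G2 and mitosis genes and of 7 related lists (rows, with the number of genes), in Atf3-OE cells (red) and Atf4-OE cells (blue), with the median of each list (black bars). Medians run from 0.11 and 0.10 for the anaphase-promoting complex to 1.75 and 1.77 for the S phase genes, with the 52 genes at 0.43 and 0.53.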

How the data were processed

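Per the labels' protocols, total RNA was column-purified and treated with DNase, and unstranded libraries from the NEBNext Ultra RNA kit were sequenced as read pairs on a NovaSeq. The authors deposited raw counts, whole numbers per Ensembl mouse gene with no normalization. The submitters' processing notes name STAR, edgeR and the build mm10. How reads were counted, and with which annotation, is not given in the sources used here. Groups and replicate numbers were taken from titles.

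Symbols, exon lengths and exons shared between genes came from GENCODE M21 on GRCm38, the assembly also called mm10. Exon length counts every base in an exon of any annotated transcript of a gene. Symbols were found for 52083 of 55416 identifiers, and the 3333 others held at most 0.253% of a library's counts. Counts were fitted in R 4.3.3 with edgeR 4.0.16, using TMM scaling, filterByExpr (18244 genes tested of 35525 with a count), all 15 libraries in 1 model and the quasi-likelihood test, with Benjamini-Hochberg adjustment over all tested genes and a threshold of 0.05. Standard errors are the log2 fold change divided by the root of its F statistic. The scripts were tested on simulated data. Lines do not overlap when every library of one lies above every library of another. Alternatives were other scalings, filters and tools (limma 3.58.1, DESeq2 1.42.0), 2 lines in the fit, a replicate block, and left-out libraries. Libraries of a line differed beyond sampling noise in all 30 pairs (chi-square per degree of freedom 5.47 to 53.4), and the labels name no batch or date. The members and gene lists were chosen with earlier results of these data known. Every library value is given for the 3 largest rises and falls per comparison, for Ccnb1, Cdk1, Cdc20, Plk1, Aurkb, Foxm1, Mki67 and Top2a, and for Cenpe, chosen after its values were seen as the remaining gene that fell. From other lists up to 2 genes per direction and comparison with the smallest adjusted p were eligible to be named.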

Additional observations from a re-analysis of the deposited data

Results flagged for a closer look

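For each of the 52 genes and each line, the highest and lowest of the 5 libraries were compared with the nearest of the others by Dixon's ratio of gap to range. In 7 of 156 such groups (4.49%) the ratio was above the 95% critical value of 0.71, and chance alone flags about 1 group in 20. Atf4-OE library 5 was lowest for Ccnb1, at 152 CPM with the next library at 162 CPM, and for Spc25, at 72.1 CPM with the next at 79.0 CPM. Atf4-OE library 4 was highest for Incenp, at 138 CPM, the next being at 135 CPM. In the Atf3-OE line, library 3 was lowest for Bub1b, at 80.5 CPM against 85.0 CPM in the next, and library 1 was highest for Ttk, at 29.9 CPM against 28.5 CPM. Control library 4 was highest for Cenpe, at 78.8 CPM against 69.0 CPM in the next, and for Ncapg, at 53.0 CPM against 47.2 CPM.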

How the results depend on the processing

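The median log2 fold change over the 52 genes in Atf3-OE over control cells was 0.31 with upper-quartile scaling and 0.29 with plain totals, and in Atf4-OE over Atf3-OE cells 0.17 and 0.20, where plain totals also gave 41 higher genes, because these scalings moved the median of all genes by as much. In Atf3-OE over control cells upper-quartile scaling gave 40 higher and 6 lower genes, against 29.6% and 44.4% of all tested genes. Plain totals gave 38 higher and 6 lower genes there, against 28.6% and 45.8%. Leaving out each library in turn gave 3 to 5 lower genes and 43 to 44 higher ones in Atf3-OE over control cells, 46 higher in Atf4-OE over control cells and 15 to 24 higher in Atf4-OE over Atf3-OE cells. Length-adjusted offsets, chosen after seeing the data, left 2 lower genes in Atf3-OE cells, and upper-quartile scaling gave 1 lower gene in Atf4-OE cells, Pttg1. Signs that turned belonged to log2 fold changes near 0 that did not pass the test on either side. In Atf3-OE over control cells these were Cdc25b (-0.013 with plain totals), Cdc25c (-0.065 with upper-quartile scaling, -0.083 with plain totals and -0.0052 with a filter at 1 CPM), Cenpa (-0.055 with upper-quartile scaling and -0.073 with plain totals) and Pttg1 (0.023 with no filter, and -0.041 to 0.016 with a library left out). In Atf4-OE over control cells they were Ccnb2 (0.023 without control libraries 4 and 5), Cenpe (-0.0082 with upper-quartile scaling) and Cenpf (-0.0016 with RLE, -0.054 with upper-quartile scaling, -0.033 with plain totals, -0.0014 with DESeq2, -0.011 with limma-voom, -0.030 with a filter at 1 CPM, and -0.083 to 0.050 with a library left out). In Atf4-OE over Atf3-OE cells Foxm1 lay at -0.018 to 0.035 with a library left out. Where no cause is named, the cause was not tested. Over single genes, 3197 planned values kept their direction and side of the threshold, 66 lost it, 13 gained it and 24 turned.

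Replicate numbers did not pair the libraries: deviations of same-numbered libraries correlated at -0.079 to 0.098, and in 5 of 30 checks, each of 1 library against another line, the correlation was highest with the same number. With the number as a replicate block Cenpf in Atf4-OE cells was at -0.0064, 43 genes were higher and 5 lower in Atf3-OE cells, 46 were higher in Atf4-OE cells, and 17 were higher in Atf4-OE over Atf3-OE cells.

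With 53.7 to 69.6 M counts per library, depth did not limit these genes. The limits are 1 line per construct, 1 time point, and counts that ignore strand.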
